A study of Mus musculus with 12 samples.

Results

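The comparison sets 2 kinds of mouse sample side by side after 2 h of lipopolysaccharide (LPS), a cell wall component of bacteria: cultured peritoneal macrophages carrying a control hairpin, and whole liver. The 6 libraries compared are 6 of the 12 of the series, 3 per group, chosen by their labels: C57BL/6 peritoneal macrophages that received a lentivirus with the negative control short hairpin RNA (shNC) for 72 h and then LPS for 2 h, and C57BL/6 liver after 2 h of LPS. The other 6 libraries, 3 of untreated C57BL/6 liver and 3 of C57BL/6 macrophages with a hairpin that targets Gm26917, a long non-coding RNA (72 h, then LPS for 2 h), are given beside them as values only. Genes were compared over the 49022 Ensembl gene IDs present in both the liver tables (49585 IDs) and the macrophage tables (55401 IDs), which came from different annotations. The comparison asks how the transcripts of one macrophage population under LPS differ from those of the organ named in the study's title, LPS-induced acute liver injury. All macrophage libraries carry a lentivirus and none is without LPS. The cell type, the culture, the virus and the annotation differ together between the groups, so their parts in any difference cannot be told apart. In bulk RNA, fewer cells of a type and less RNA per cell also cannot be told apart. The labels do not say whether replicates came from separate animals or cultures, so p-values measure the spread between these libraries, which may be technical.

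Macrophages detect LPS through CD14, MD-2 and toll-like receptor 4, and answer within hours with NF-kB-driven cytokines and chemokines and, through a second adaptor branch, interferon-stimulated genes. Resident macrophages of the peritoneal cavity are a different population from Kupffer cells, the resident macrophages of the liver. In liver, hepatocytes supply most of the RNA; they make albumin, clotting factors, complement and lipoproteins, and during inflammation the acute phase proteins.

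The libraries held 15605311 to 17176755 counts in macrophages and 18131277 to 20913964 in LPS liver, with 99.76% to 99.97% of them in the shared IDs. Mitochondrially encoded transcripts took 0.524% to 0.841% of the macrophage counts and 6.21% to 9.65% of the LPS liver counts, the highest share being that of liver replicate 1. Values below are CPM (counts of a gene scaled to the library's total over the shared IDs), in the order of replicates 1, 2 and 3, and fold changes are ratios on this scale. Macrophage replicate 2 stood apart: its log2 CPM correlated with those of replicates 1 and 3 at r = 0.963 and 0.962 across genes, against 0.989 between replicates 1 and 3 (genes are not independent replicates, and no test was made). Liver replicate 1 stood apart less (0.973 and 0.976, against 0.989). Replicate 2 was the highest macrophage library for 37.5% of the 13798 genes tested and the lowest for 38.1%. It was the highest for 32 of 32 tested interferon-stimulated genes and the lowest for 13 of 22 cytokines. It was also the lowest for 22 of 22 cytosolic ribosomal protein genes and 13 of 13 mitochondrially encoded messengers. Where leaving out 1 library moved the count of a gene group by over 1.5 times, the count without it is given.

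Most genes differed. Of 13798 genes tested, 80.1% passed an adjusted p threshold of 0.05 in edgeR's quasi-likelihood test: 7398 (53.6%) were higher in macrophages and 3658 (26.5%) lower. The groups did not overlap for 82.8%. At least 8-fold differences were called for 2136 genes (15.5%) in the higher and 2044 (14.8%) in the lower direction. These percentages are the background for the gene groups below: a group in which about 53.6% of members are higher and 26.5% lower stands where all genes stand. The scaling decides the sign of small differences. The median log2 difference of all genes was 0.88 on library totals and -0.11 after TMM scaling. TMM sets a scaling factor for each library from a trimmed mean of log ratios over genes. TMM moved the median down by 0.99 and called 4788 higher (34.7%) and 5429 lower (39.3%), so the higher share of the calls went from 66.9% to 46.9%. No gene lower on library totals was higher under TMM, and 130 genes went the other way. Counts under TMM are given beside those on library totals for the gene groups below.

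**Figure D1:**
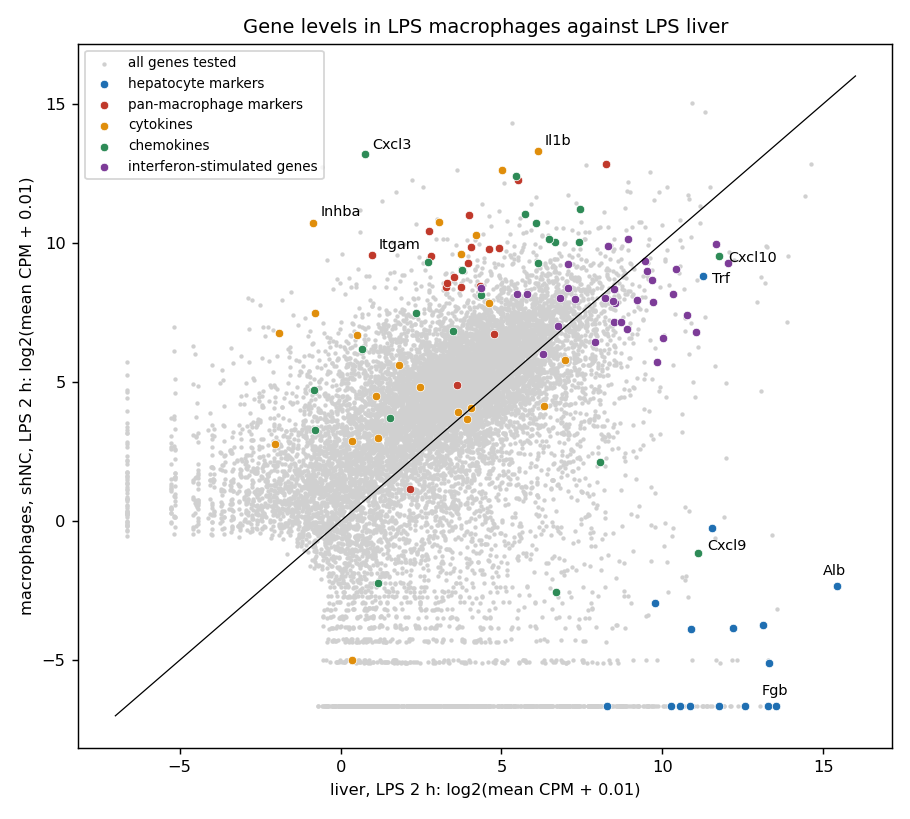
Mean level of each tested gene (points) in LPS liver (horizontal axis) and in control-hairpin LPS macrophages (vertical axis), both as log2(mean CPM + 0.01) over 3 libraries, with 5 gene lists coloured and the line of equal levels drawn. Hepatocyte markers other than Trf lie along the bottom right, pan-macrophage markers mostly lie above the line, and Cxcl9 lies among the hepatocyte markers while Cxcl3 lies at the top.

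The genes furthest above the line include secreted signals, receptors and enzymes known from activated macrophages. Serpinb2, a plasminogen activator inhibitor (chr1:107511423-107535478 in GENCODE M21, mm10), had 6173, 7016 and 7296 CPM in macrophages and 0.386, 0.574 and 1.02 CPM in LPS liver (log2 difference 13.32, SE 0.55, edgeR adjusted p = 1.54e-06). Cxcl3, a neutrophil-attracting chemokine, had 10464, 5116 and 12273 CPM against 2.04, 0.622 and 2.40 CPM (log2 difference 12.43, SE 0.82, edgeR adjusted p = 6.81e-06). Inhba, the activin A subunit, had 1602, 798 and 2638 CPM against 0.441, 0.383 and 0.802 CPM (log2 difference 11.59, SE 0.70, edgeR adjusted p = 4.64e-06). For these 3 genes the gap between the groups was far wider than the spread within either. Ptges, the inducible prostaglandin E synthase, had 2021, 2849 and 2017 CPM against 1.38, 1.72 and 1.39 CPM, a 1524-fold difference (adjusted p = 1.27e-06). Slc7a11, the cystine transporter, was 1084-fold higher, with 4908, 1086 and 4807 CPM against 3.48, 3.16 and 3.31 CPM. The adenosine receptor Adora2b (1689.9-fold) and the adhesion protein Flrt3 (2003-fold) had between 217 and 275 CPM and between 249 and 265 CPM in macrophages and under 1 CPM in liver. Stfa3, a cystatin-type protease inhibitor, had 6268 counts in macrophages against 1 in LPS liver, a CPM ratio of 7348 (95% counting interval 1318 to 290270.0); near-identical stefin genes may share its reads. The gene 2010005H15Rik was 1223-fold higher.

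Pf4, platelet factor 4, is known for its high level in megakaryocytes and is also transcribed in macrophages. It had 2931, 3361 and 2484 CPM in macrophages, 2.87, 2.20 and 2.24 CPM in LPS liver and 0.635, 0.742 and 1.05 CPM in untreated liver (log2 difference 10.23, SE 0.36, edgeR adjusted p = 1.27e-06). Every macrophage library lay far above every liver library, and LPS liver above untreated liver. Its promoter, chr5:90772185-90772484 on the plus strand of GRCm38.p6 (RefSeq, 250 bases before to 50 after the start site), is shown because it carries, next to the start, the sequence that the macrophage factor PU.1 is known to bind. The capitals mark GAGGAAGT on the minus strand, at position -10 counted from the start site:
Pf4: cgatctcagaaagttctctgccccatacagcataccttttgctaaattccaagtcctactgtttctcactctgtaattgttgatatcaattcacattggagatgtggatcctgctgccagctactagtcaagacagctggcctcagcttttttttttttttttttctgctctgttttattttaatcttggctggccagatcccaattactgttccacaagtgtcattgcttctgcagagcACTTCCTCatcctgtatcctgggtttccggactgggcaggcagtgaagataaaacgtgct

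The 10 genes furthest below the line are all made by hepatocytes, and each had 0 counts in every macrophage library. They are Fgb (fibrinogen beta chain, chr3:83040141-83049863), Apoa1 and Apob (apolipoproteins of HDL and of VLDL and LDL), Bhmt and Mat1a (methionine metabolism), Ahsg (fetuin), Serpina3n and Serpina1b (protease inhibitors), Cyp4a14 (a fatty acid hydroxylase) and Itih3 (an inter-alpha-trypsin inhibitor chain). Fgb had 9715, 12219.5 and 13261 CPM in LPS liver. Against a floor of 3 counts over the 3 macrophage libraries it was at least 193261-fold lower in macrophages (edgeR adjusted p = 5.16e-06). The bound was at least 162525-fold for Apoa1, at least 99136-fold for Ahsg and at least 58853-fold for Itih3. In all, 171 tested genes with a mean of at least 100 CPM in LPS liver had 0 counts in the macrophages, and 0 genes of that level in macrophages had 0 counts in LPS liver. Levels above 100 CPM on one side and below 1 CPM on the other were found for 301 genes of liver and 27 of macrophages.

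The hepatocyte and pan-macrophage marker lists went with the labels of the groups. Hepatocyte markers were lower in macrophages for 16 of 16 under both scalings. Alb, albumin, had 32396, 45370.0 and 54434 CPM in LPS liver and 0.450, 0 and 0.117 CPM in macrophages (log2 difference -17.81, SE 1.11, edgeR adjusted p = 5.23e-06), where 9 counts were found in all. Summed over the list, hepatocyte markers gave 381 to 499 CPM in macrophages, nearly all of it Trf (transferrin, 497, 381 and 471 CPM; named after its values were seen), against 93065 to 130591 CPM in LPS liver. Of 18 pan-macrophage markers 16 were higher in macrophages (14 under TMM) and none lower. Adgre1, which encodes F4/80, had 1267, 1871 and 993 CPM against 3.64, 9.42 and 6.95 CPM, and Itgam, which encodes CD11b, 814, 699 and 766 CPM against 1.82, 1.91 and 2.08 CPM, differences of 206-fold (adjusted p = 6.85e-06) and 390.3-fold (adjusted p = 1.27e-06). Lyz2, lysozyme, was 108-fold higher and Cd53, a leukocyte tetraspanin, 129-fold higher. The exceptions were Mertk, the receptor for apoptotic cells (13.9, 59.0 and 16.6 CPM against 16.3, 11.4 and 9.41 CPM), and Aif1 (0.578, 5.62 and 0.408 CPM against 3.26, 6.41 and 3.74 CPM). Neither passed the test, and for both macrophage replicate 2 was the highest. Mertk was higher without macrophage replicate 1 or 3, and without replicate 2 Aif1 was lower in macrophages (log2 difference -3.17, adjusted p = 4.62e-04).

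Markers known to tell resident macrophages apart differed in both directions. Summed over the list, Kupffer cell markers gave 1408, 723 and 1548 CPM in macrophages and 549, 919 and 686 CPM in LPS liver. Marco alone gave 1197, 259 and 1381 CPM of the macrophage sums. Clec4f, the lectin of mouse Kupffer cells, had 25.9, 91.3 and 72.9 CPM in LPS liver and 0 counts in macrophages (at least 1064-fold lower). Cd5l, which resident macrophages of liver and spleen secrete, had 24.9, 72.0 and 49.5 CPM in LPS liver and 0.128, 6.22 and 0.584 CPM in macrophages, a 21.0-fold difference (adjusted p = 0.00493). Of the 15 Kupffer cell markers 8 were lower in macrophages (8 under TMM) and 3 higher (1 under TMM); the 3 higher were the scavenger receptor Marco (1197, 259 and 1381 CPM against 31.2, 56.5 and 36.9 CPM, 22.7-fold), the haemoglobin receptor Cd163 (3.89-fold; not called under TMM) and C1qc (1.97-fold; not called under TMM, where its log2 difference was -0.0198, nor without any 1 library other than liver replicate 2 or macrophage replicate 3). Large peritoneal macrophage markers were split: 5 of 11 tested members were higher in macrophages and 1 lower (4 higher and 3 lower under TMM; 2 lower without macrophage replicate 2). Alox15, the 12/15-lipoxygenase, had 99.9, 11.5 and 94.4 CPM in macrophages and 1 count in LPS liver, a ratio of 3942 (95% counting interval 707 to 155761). Icam2 was 32.1-fold higher, and the retinoic acid receptor Rarb, named after its values were seen, was the lower member. Gata6, the factor that sets the identity of large peritoneal macrophages, did not pass the test, with 30.6, 14.1 and 35.2 CPM in macrophages and 23.3, 28.7 and 36.0 CPM in LPS liver; under TMM it was lower. Of markers of small peritoneal macrophages and dendritic cells 5 of 10 tested members were higher and 1 lower (5 higher and 2 lower under TMM; 3 lower without macrophage replicate 2). The complement genes C1qa (49.5, 128 and 38.6 CPM against 31.0, 57.6 and 47.0 CPM) and C1qb (53.7, 155 and 43.8 CPM against 21.1, 55.5 and 45.4 CPM), which macrophages of both organs make, did not pass the test on library totals; C1qb was higher without macrophage replicate 3.

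Transcripts of other cells were present on both sides. B cell markers were higher in macrophages for 10 of 10 members (9 under TMM), with summed levels of 199.5 to 613 CPM against 7.59 to 13.1 CPM. Ighm, the immunoglobulin M heavy chain, had 173, 404 and 113 CPM in macrophages, and Cd79a, part of the B cell receptor, 39.5, 55.6 and 20.8 CPM, both highest in replicate 2. The mast cell tryptase Tpsb2 had 5.72, 27.3 and 1.40 CPM in macrophages and 0 counts in LPS liver (at least 221-fold higher); in its list 2 of 3 tested members were higher and none lower (2 higher and 0 lower under TMM; 1 lower without macrophage replicate 2). Neutrophil markers split by gene, with 3 of 10 tested members higher and 5 lower (3 higher and 5 lower under TMM; 7 lower without macrophage replicate 2). The defining S100a9 had 98.8, 122 and 85.3 CPM in LPS liver (0.635, 0.989 and 2.99 CPM in untreated liver) and 1 count in macrophages, and Retnlg 15.1, 18.5 and 12.3 CPM and 0 counts, whereas Mmp9, Csf3r and Mmp8, which activated macrophages can also express, were 366-fold, 11.1-fold and 14.4-fold higher in macrophages. Summed neutrophil markers spanned 677 to 1112 CPM in macrophages and 192 to 275 CPM in LPS liver. Markers of liver endothelium were lower in macrophages for 9 of 11 tested members, of stellate cells, fibroblasts and mesothelium for 9 of 11, and of cholangiocytes for 6 of 6. Under TMM these counts were 9, 10 and 6. No stellate, fibroblast or mesothelial marker was higher with all libraries, and 1 was higher without macrophage replicate 2. Stab2, a scavenger receptor of sinusoidal endothelium, had 62.5, 55.1 and 45.9 CPM in LPS liver and 1 count in macrophages. Of erythroid and platelet markers 5 of 7 tested members were lower and 2 higher (1 higher and 5 lower under TMM; 1 higher without macrophage replicate 1 or 3 or liver replicate 1 or 2). The higher member under both scalings was Pf4 (above). Haemoglobin Hbb-bs, from red blood cells, had 368, 466 and 232 CPM in LPS liver and 2.18, 0 and 0 CPM in macrophages. T and NK cell markers summed to 12.5 to 39.8 CPM in macrophages and 18.8 to 31.3 CPM in LPS liver, with 5 of 12 members tested, 1 of them higher in macrophages and 3 lower (1 higher and 4 lower under TMM; 5 lower without any 1 macrophage library or liver replicate 3; 7 lower without a filter on low counts and 11 in the DESeq2 Wald test). The part of these other cells in the differences below was not tested.

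**Figure D2:**
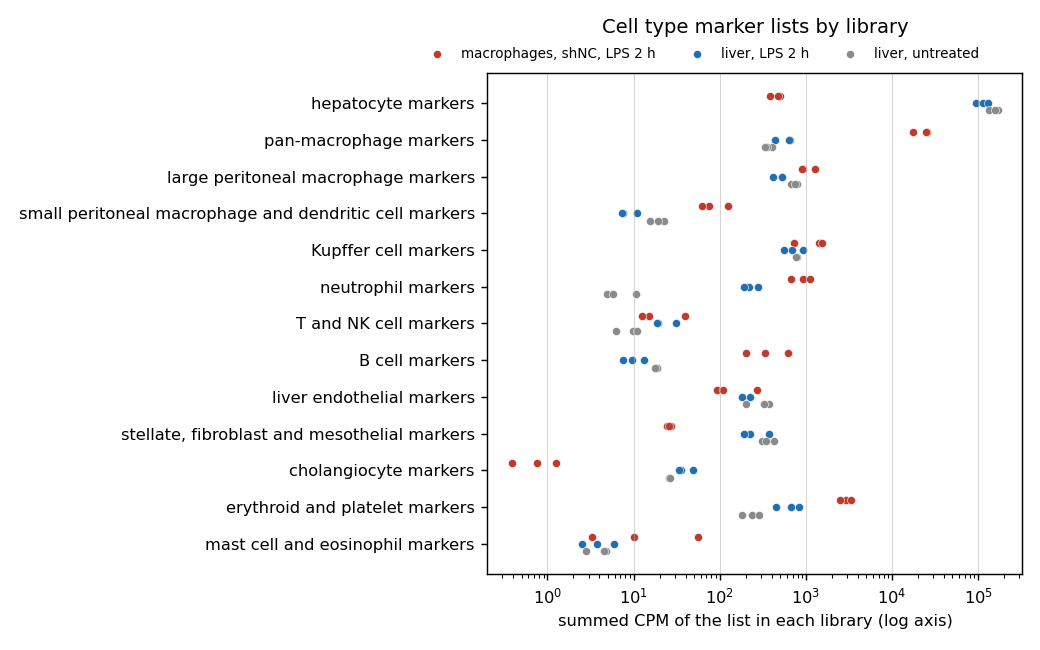
Summed CPM of each cell type marker list (log axis) in each of the 3 macrophage, 3 LPS liver and 3 untreated liver libraries, one point per library. Hepatocyte marker sums are at least 93065 CPM in every liver library and at most 499 CPM in every macrophage library, and B cell marker sums are higher in the 3 macrophage libraries than in the liver libraries.

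Cytokines, the secreted signals of inflammation, were mostly higher in the macrophages. In this list 16 of 22 tested members were higher in macrophages and 2 lower, with 4 not called (14 higher and 4 lower under TMM; 1 lower without macrophage replicate 1 or 3, 4 lower without macrophage replicate 2); the median log2 difference was 3.60, against 0.88 for all genes. Il1b, interleukin 1 beta, had 11718, 3498 and 15266 CPM in macrophages, 63.1, 75.5 and 71.5 CPM in LPS liver and 5.08, 1.24 and 1.39 CPM in untreated liver (log2 difference 7.18, SE 0.67, edgeR adjusted p = 3.35e-05). The lowest macrophage library, replicate 2, was still above all liver libraries. Il6, the main inducer of hepatic acute phase genes, had 1701, 244 and 3204 CPM in macrophages and 10.8, 6.60 and 7.70 CPM in LPS liver (log2 difference 7.68, SE 0.99, edgeR adjusted p = 1.97e-04), again lowest in replicate 2. Tnf, tumour necrosis factor, had 286, 134 and 273 CPM against 26.0, 27.5 and 19.8 CPM, a smaller difference of 9.45-fold (adjusted p = 5.48e-05). The colony-stimulating factor Csf2 had 84.7, 37.5 and 207 CPM against 0.717, 0 and 0.0534 CPM (433-fold), and oncostatin M (Osm) 187, 77.4 and 268 CPM against 0.607, 0.239 and 0.855 CPM (313-fold).

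Several members did not follow. Csf1, the growth factor of macrophages themselves, was lower in macrophages, with 46.2, 70.5 and 48.8 CPM against 198, 85.2 and 91.4 CPM, a 2.26-fold difference (adjusted p = 0.0162) that was not called without macrophage replicate 1 or 3 (log2 differences -1.06 and -1.10). The other lower member was Ifng, the interferon of T and NK cells, chosen for naming after its values were seen, with 1 count in macrophages and 2.37, 0.622 and 0.802 CPM in LPS liver. Il10, the anti-inflammatory cytokine, had 4.50, 14.4 and 4.96 CPM against 1.16, 2.87 and 2.67 CPM and was higher on library totals (adjusted p = 0.0166) but not called under TMM (adjusted p = 0.207) or without liver replicate 1; the Gm26917 hairpin libraries had 0.943, 0.246 and 0.944 CPM. Tnfsf10, the death ligand TRAIL and an interferon target, had 1.35, 48.7 and 3.27 CPM in macrophages and 53.4, 94.1 and 91.1 CPM in LPS liver. On library totals it was not called with replicate 2 (adjusted p = 0.107; lower under TMM) and lower without it (log2 difference -5.09, adjusted p = 1.31e-05). Il15 behaved alike, with 3.34, 30.2 and 4.38 CPM against 17.7, 14.5 and 13.4 CPM; without replicate 2 the log2 difference was -1.97 (adjusted p = 1.36e-04).

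Chemokines attract leukocytes to a site of inflammation. In the list 16 of 23 tested members were higher in macrophages and 4 lower (16 higher and 5 lower under TMM; 6 lower without macrophage replicate 2), with a median log2 difference of 3.76. The higher members included Cxcl3 (above) and Cxcl2, which attract neutrophils through CXCR2, and Ccl6 and Cxcl14. Cxcl2 had 4858, 1930.3 and 9286 CPM in macrophages, 54.1, 36.5 and 40.7 CPM in LPS liver and 0.347, 0.346 and 0.149 CPM in untreated liver, 122-fold higher in macrophages (adjusted p = 4.52e-05). Ccl6 had 816, 245 and 839 CPM against 2.87, 9.23 and 7.54 CPM and Cxcl14 40.8, 11.7 and 25.1 CPM against 0.331, 1.10 and 0.214 CPM. Cxcl2 and Cxcl3 thus stood near each other in macrophages and apart in LPS liver, where Cxcl3 stayed below 3 CPM in every library.

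The promoters of this pair are shown because the genes lie in the same cluster of chromosome 5 and carry the same NF-kB sequence. The windows are chr5:90903649-90903948 for Cxcl2 and chr5:90785851-90786150 for Cxcl3, both on the plus strand (RefSeq, GRCm38.p6). The capitals mark GGGAATTTCC, a match on the plus strand to the NF-kB motif GGGA and TTTCC around any base, which starts at position -97 in Cxcl2 and at -73 in Cxcl3:
Cxcl2: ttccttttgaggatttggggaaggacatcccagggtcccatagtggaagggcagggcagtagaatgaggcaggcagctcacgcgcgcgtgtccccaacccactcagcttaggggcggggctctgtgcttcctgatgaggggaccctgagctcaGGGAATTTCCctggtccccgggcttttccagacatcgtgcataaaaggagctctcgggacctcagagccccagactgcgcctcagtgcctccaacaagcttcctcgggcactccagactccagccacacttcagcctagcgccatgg
Cxcl3: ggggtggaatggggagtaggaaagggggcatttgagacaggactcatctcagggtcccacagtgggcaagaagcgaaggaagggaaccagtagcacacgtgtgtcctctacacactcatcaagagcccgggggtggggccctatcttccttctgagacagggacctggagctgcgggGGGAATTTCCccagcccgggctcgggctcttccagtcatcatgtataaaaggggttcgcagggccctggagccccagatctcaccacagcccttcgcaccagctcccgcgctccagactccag

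The 4 lower members were Cxcl9 and Cxcl11, which are ligands of CXCR3 on T and NK cells, Cxcl12, and the endothelial Cx3cl1, named after its values were seen (0.128, 0.483 and 0 CPM against 3.26, 1.72 and 1.76 CPM). Cxcl9 had 2103, 2417 and 2075 CPM in LPS liver, 9.01, 9.55 and 8.61 CPM in untreated liver and 0.193, 0.181 and 0.934 CPM in macrophages, 4895-fold lower in macrophages (log2 difference -12.26, SE 0.70, edgeR adjusted p = 3.72e-06). Every macrophage library was below 1 CPM, under even the untreated liver libraries. Cxcl11 had 378, 204 and 216 CPM in LPS liver against 0.450, 12.3 and 0.292 CPM (60.9-fold, adjusted p = 0.00344). Cxcl10, the third ligand of that receptor, had 3433, 3351 and 3692 CPM in LPS liver and 67.2, 1927 and 213 CPM in macrophages. Its groups did not overlap, but with the spread of the macrophages the difference was not called on library totals (log2 difference -2.25, SE 1.06, adjusted p = 0.0827); under TMM it was lower (adjusted p = 0.0295). Without replicate 2 the log2 difference of Cxcl10 was -4.64 (adjusted p = 6.24e-05). Cxcl12, which stromal and endothelial cells secrete, had 75.9, 117 and 115 CPM in LPS liver and 0.128, 0.181 and 0.175 CPM in macrophages (606-fold lower, adjusted p = 1.27e-06), and was above the LPS values in untreated liver (351, 423 and 498 CPM). Cxcl13, which attracts B cells, had 5.72, 334 and 3.09 CPM in macrophages and 3.86, 14.5 and 15.1 CPM in LPS liver and was not called (adjusted p = 0.0889), replicate 2 lying far above the others. Its log2 difference was 3.35 with all libraries, -1.35 without replicate 2 (adjusted p = 0.0586), and 3.91 and 3.93 without replicate 1 or 3, where it was called higher.

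**Figure D3:**
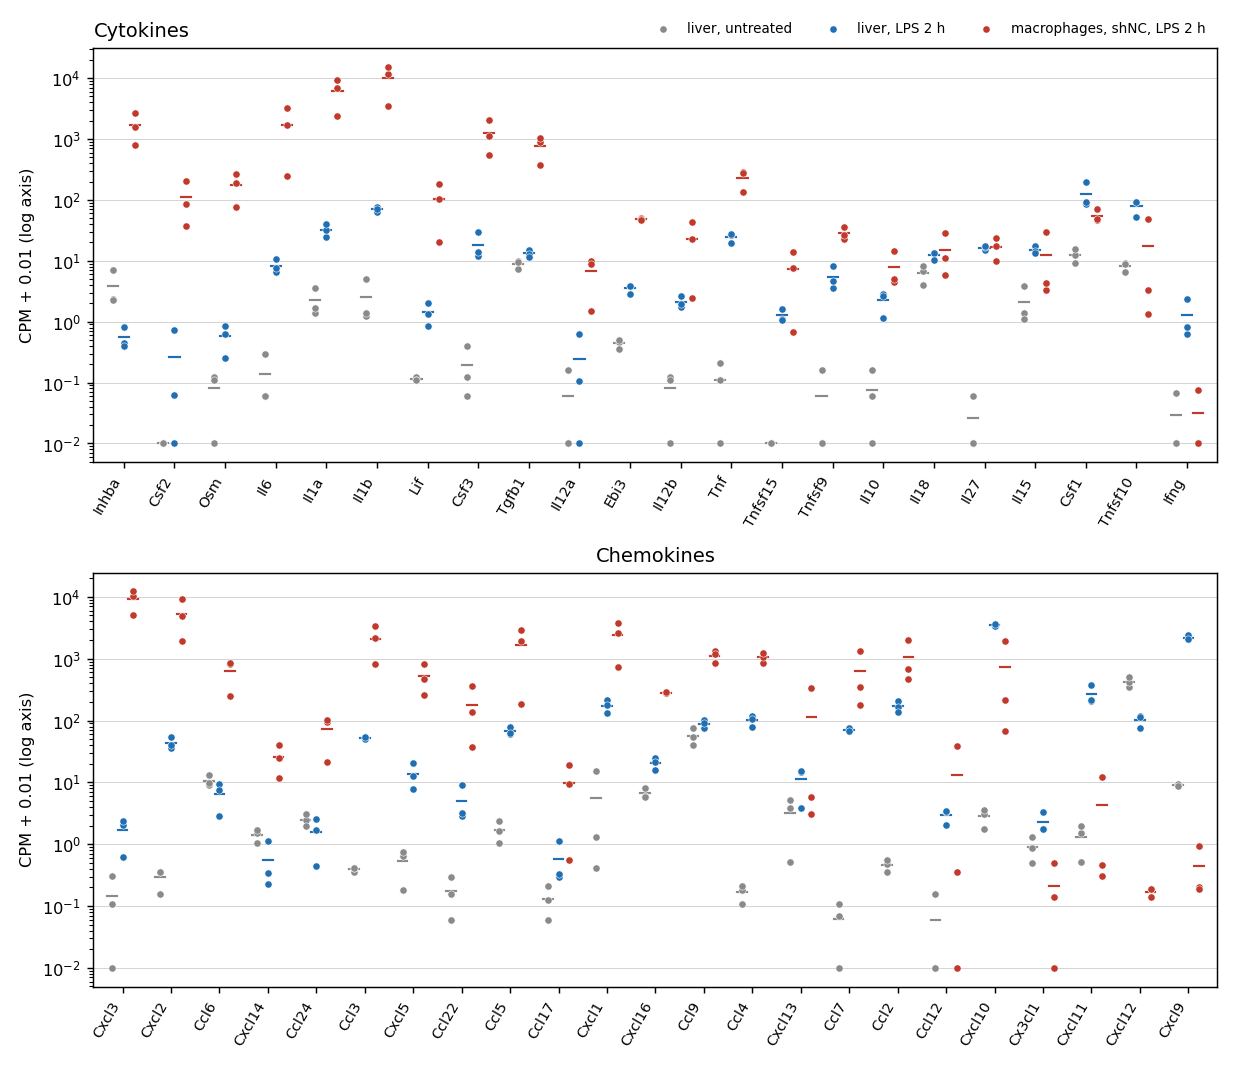
CPM + 0.01 (log axis) of each tested cytokine (upper panel) and chemokine (lower panel) in untreated liver, LPS liver and LPS macrophages, 3 libraries each as points with their mean as a bar, ordered by the macrophage minus LPS liver difference. From the left most macrophage points lie above the liver points; at the right end Csf1, Tnfsf10 and Ifng, and Cx3cl1, Cxcl11, Cxcl12 and Cxcl9, have macrophage means below those of LPS liver.

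Interferon-stimulated genes, the antiviral programme that follows type I and type II interferon, differed in both directions, and the macrophage libraries differed among themselves. Of 32 tested members 5 were higher and 10 lower in macrophages, with 17 not called, and the median log2 difference was -0.60 against 0.88 for all genes. Under TMM 4 were higher and 18 lower. Replicate 2 was the highest macrophage library for all 32. Without it 5 were higher and 20 lower; without replicate 3, 6 were lower, and without liver replicate 1, 5.

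The 2'-5'-oligoadenylate synthetases, which activate RNase L, were on the higher side. Oas3 had 74.6, 746 and 174 CPM in macrophages, 21.8, 21.9 and 18.5 CPM in LPS liver and 2.37, 0.940 and 1.59 CPM in untreated liver (log2 difference 3.9998, SE 0.81, edgeR adjusted p = 0.0022), with each macrophage library above each liver library; macrophages with the Gm26917 hairpin had 21.0, 20.2 and 16.2 CPM. Oas2 had 163, 447 and 242 CPM against 61.9, 43.3 and 29.5 CPM (6.33-fold, adjusted p = 6.91e-04) and Oas1a 138, 463 and 251 CPM against 73.6, 54.5 and 39.2 CPM (5.10-fold, adjusted p = 0.00174). Oasl2 was 4.55-fold higher on library totals and not called under TMM (adjusted p = 0.0524). Cd274, the checkpoint ligand PD-L1 and the remaining higher member, was 3.03-fold higher; it was named after its values were seen. The lower side held the Mx GTPases, which block virus replication, and genes of the Ifit and immunity-related GTPase families. Iigp1 had 2103, 2078 and 2089 CPM in LPS liver and 11.6, 290.1 and 35.0 CPM in macrophages (18.6-fold lower, adjusted p = 0.00822). Mx1 had 2147, 1524 and 1549 CPM against 23.0, 449 and 43.6 CPM (10.1-fold, adjusted p = 0.0194; not called without liver replicate 1) and Mx2 1309, 658 and 759 CPM against 8.67, 115 and 35.5 CPM (17.1-fold, adjusted p = 0.00298). Ifit2 had 835, 1269 and 1022 CPM against 15.7, 226 and 42.0 CPM (11.02-fold, adjusted p = 0.00812).

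Ifit1, a cap-binding inhibitor of viral translation named here after its values were seen, had 5279, 3959 and 3309.6 CPM in LPS liver, 24.1, 21.4 and 9.61 CPM in untreated liver and 102, 1463 and 309 CPM in macrophages (6.69-fold lower, adjusted p = 0.0205; not called without liver replicate 1 or macrophage replicate 3). Ifit3 showed how far the call depended on 1 library. It had 27.1, 1501 and 61.6 CPM in macrophages and 1322, 1499.6 and 1259 CPM in LPS liver, so replicate 2 lay at the liver level and replicates 1 and 3 far below it. Its log2 difference was -1.36 (adjusted p = 0.343) with replicate 2 and -4.94 (adjusted p = 1.01e-05) without; its near-identical copy Ifit3b may share reads with it, as Oas1g may with Oas1a. Rsad2, viperin, had 192, 2153 and 645 CPM against 2861, 4063 and 2927 CPM, with a log2 difference of -1.72 (adjusted p = 0.0669; lower under TMM) and -2.97 without replicate 2 (adjusted p = 8.03e-04). Irf7, the factor that amplifies interferon, had 197, 2813 and 399 CPM against 666, 422 and 379 CPM and was not called (adjusted p = 0.234), and the Gm26917 hairpin libraries had 52.7, 35.0 and 32.6 CPM.

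The promoters of Oas3 and Ifit1 are shown because both carry the interferon-stimulated response element while their transcripts differed in opposite directions. The windows are chr5:120777610-120777909 on the minus strand for Oas3 and chr19:34640639-34640938 on the plus strand for Ifit1 (RefSeq, GRCm38.p6). The capitals mark matches to GAAA before and after any 2 bases, at position -75 on the promoter's own strand in Oas3 and at positions -104 and -85 on the opposite strand in Ifit1. In Oas3 they also mark the AP-1 sequence TGANTCA, at -109 and -54:
Oas3: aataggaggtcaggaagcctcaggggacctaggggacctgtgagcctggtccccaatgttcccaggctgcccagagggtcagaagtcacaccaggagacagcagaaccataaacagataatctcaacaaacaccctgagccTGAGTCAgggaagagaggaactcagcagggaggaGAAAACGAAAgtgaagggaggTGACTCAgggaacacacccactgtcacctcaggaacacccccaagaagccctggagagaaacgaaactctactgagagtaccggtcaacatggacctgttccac
Ifit1: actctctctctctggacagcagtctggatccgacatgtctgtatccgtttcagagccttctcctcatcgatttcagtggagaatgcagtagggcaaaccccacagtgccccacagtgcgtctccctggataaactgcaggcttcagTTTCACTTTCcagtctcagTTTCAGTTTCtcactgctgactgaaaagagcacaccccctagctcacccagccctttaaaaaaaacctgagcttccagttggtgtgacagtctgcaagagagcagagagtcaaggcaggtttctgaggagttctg

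**Figure D4:**
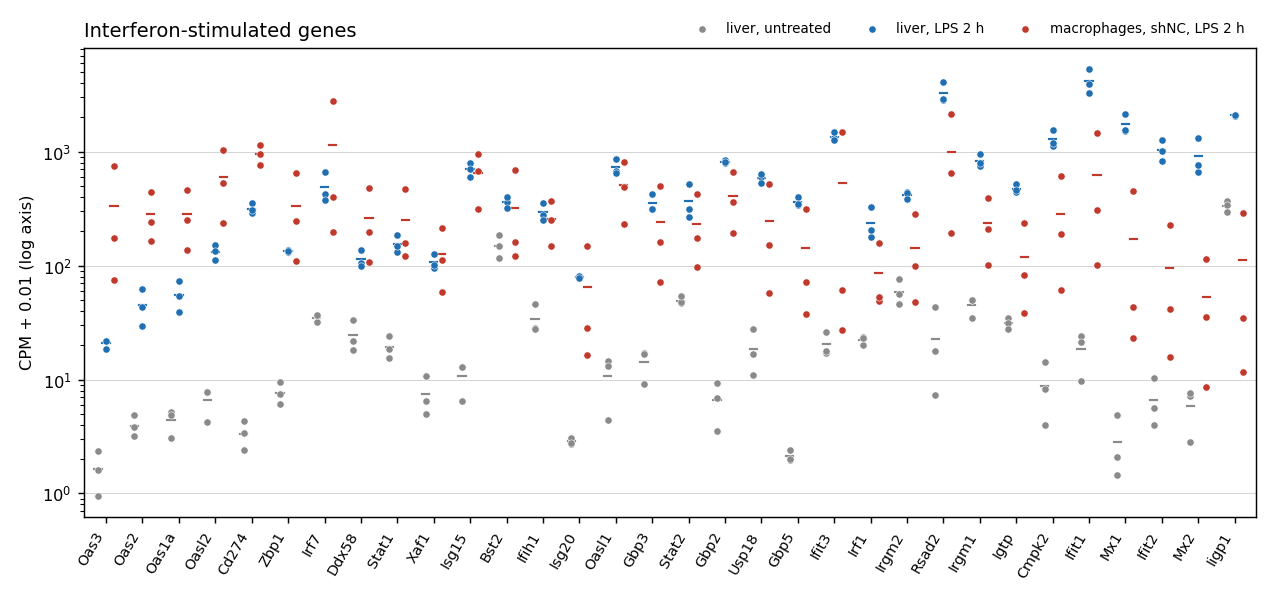
CPM + 0.01 (log axis) of 32 interferon-stimulated genes in untreated liver, LPS liver and LPS macrophages, 3 libraries each as points with their mean as a bar, ordered by the macrophage minus LPS liver difference. One macrophage point, replicate 2, lies above the other macrophage points for every gene, and the Oas genes stand at the left end and Mx2 and Iigp1 at the right end.

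Receptor and adaptor genes of LPS signalling were mostly higher in macrophages on library totals, where 15 of 20 tested members were higher in macrophages and 2 lower (median log2 difference 1.43), but only 8 were higher and 4 lower under TMM. The surface receptors were among the members with the larger folds. Tlr4, the receptor, had 166, 164 and 157 CPM in macrophages and 1.71, 1.48 and 1.55 CPM in LPS liver (log2 difference 6.68, SE 0.19, edgeR adjusted p = 1.27e-06), and did not exceed 3.23 CPM in untreated liver. Cd14, the co-receptor, had 8198, 3369 and 10562 CPM against 232, 321 and 362 CPM (24.2-fold, adjusted p = 8.95e-05). Irak3, the kinase-dead brake on the pathway, had 399, 373 and 361 CPM against 49.4, 39.7 and 43.6 CPM (8.54-fold), and the ubiquitin ligase Traf6 62.9, 64.8 and 59.5 CPM against 14.02, 13.2 and 11.97 CPM (4.77-fold). Lbp, the plasma protein that hands LPS to CD14 and is made by hepatocytes, was 146-fold lower in macrophages (3.08, 4.59 and 1.75 CPM against 428, 423 and 528 CPM). The adaptor Myd88 had 139, 173 and 147 CPM against 193, 155 and 155 CPM and was not called on library totals (adjusted p = 0.504; lower under TMM), while untreated liver had 13.8, 10.9 and 17.7 CPM. Chuk, a subunit of the IkB kinase, was 1.52-fold lower in macrophages.

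NF-kB and its upstream kinases also induce the genes that restrain them and the first wave of transcription factors, and their median differences were smaller than those of the cytokines. The list of feedback regulators of NF-kB also holds the NF-kB subunit genes Nfkb2, Rel and Rela. Of its 20 tested members 13 were higher in macrophages and 4 lower (median log2 difference 1.46, against 0.88 for all genes). Under TMM 6 were higher and 5 lower. Without macrophage replicate 1 or any 1 liver library 2 were lower. Over all genes 53.6% were higher and 26.5% lower (34.7% and 39.3% under TMM). The share of higher members in this list thus stood near that of all genes. Zc3h12a, the RNase that degrades cytokine transcripts, had 496, 359 and 531 CPM against 28.8, 21.0 and 26.3 CPM (18.2-fold, adjusted p = 4.58e-06), and Nfkb2 was 6.86-fold, Tnip1 5.85-fold and Rel 5.22-fold higher. Lower in macrophages were the phosphatase Dusp2 (4.24, 9.25 and 3.33 CPM against 30.2, 25.2 and 23.4 CPM, 4.69-fold), Bcl3 (1.69-fold), Rela, the NF-kB subunit p65 (1.44-fold), and Socs1, the brake on interferon signalling (119, 175 and 97.5 CPM against 229, 201 and 176 CPM, 1.54-fold). The call of Socs1 was lost without any 1 library other than macrophage replicate 2, and that of Rela without any liver library or macrophage replicate 1. Socs1 had 0.688 CPM on average in untreated liver. Among immediate early genes 12 of 18 tested members were higher in macrophages and 1 lower (median log2 difference 1.08). Under TMM 5 were higher and 3 lower, with a median of 0.09 against -0.11 for all genes. Without macrophage replicate 2, 2 were lower. Here too the share of higher members stood near that of all genes. Egr2 had 75.3, 34.3 and 46.8 CPM in macrophages and 1.43, 1.43 and 1.39 CPM in LPS liver (36.5-fold higher, adjusted p = 6.80e-06), whereas Egr1 had 13.4, 34.1 and 10.04 CPM and 94.8, 106 and 138 CPM (5.87-fold lower, adjusted p = 0.00114). These 2 related zinc finger factors thus differed in opposite directions with no overlap of the groups. Ier3, a survival gene, was 19.1-fold higher, and Atf3 (172, 228 and 230.1 CPM against 177, 158 and 125 CPM) and Myc (16.4, 23.4 and 21.1 CPM against 27.1, 18.7 and 21.6 CPM) were not called on library totals; Myc was lower under TMM.

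Enzymes of eicosanoid synthesis, which turn arachidonic acid into prostaglandins and leukotrienes, were higher in macrophages for 11 of 14 tested members and lower for 1 (11 higher and 3 lower under TMM; 2 lower without any 1 macrophage library or liver replicate 2; median log2 difference 4.90). Pla2g4a, Ptgs2 and Ptges, which act in turn on the way to prostaglandin E2, were higher. Pla2g4a, the phospholipase that frees arachidonic acid, had 434, 407 and 445 CPM in macrophages and 1.55, 1.05 and 0.962 CPM in LPS liver (360.1-fold, adjusted p = 1.27e-06). Ptgs2, cyclooxygenase 2, had 4573, 1572 and 8513 CPM in macrophages, 7.84, 2.77 and 3.31 CPM in LPS liver and 0, 0.0989 and 0.149 CPM in untreated liver (log2 difference 10.04, SE 0.93, edgeR adjusted p = 3.32e-05). Ptges, the last enzyme, is described above. Hpgd, which inactivates prostaglandins, went the other way, with 0 counts in macrophages and 37.0, 74.2 and 53.9 CPM in LPS liver (at least 919-fold lower). Ptges2 and Ptges3, the constitutive prostaglandin E synthases, were not called, at 24.8, 22.6 and 27.4 CPM against 26.5, 27.9 and 22.2 CPM and 129, 72.5 and 149 CPM against 162, 139.9 and 115 CPM; under TMM both were lower in macrophages.

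Arginine can feed nitric oxide, the urea cycle or polyamines, and itaconate is a product of activated macrophages. Of 11 genes of these routes 4 were higher in macrophages and 5 lower (4 higher and 6 lower under TMM). Slc7a2, the inducible arginine transporter, had 7695, 5948 and 7651 CPM in macrophages and 209, 160.5 and 219.6 CPM in LPS liver (36.2-fold higher, adjusted p = 5.80e-06), with 1608, 1004 and 559 CPM in untreated liver. Nos2, the inducible nitric oxide synthase, had 29.0, 475 and 59.2 CPM against 8.17, 9.28 and 7.27 CPM (22.7-fold, adjusted p = 0.00427), with replicate 2 far above the others and 0.999, 0.430 and 0.503 CPM in macrophages with the Gm26917 hairpin. Acod1, which makes itaconate, had 2857, 2377 and 2948 CPM against 47.8, 74.5 and 59.1 CPM (45.1-fold, adjusted p = 3.53e-06). Arg2, the mitochondrial arginase, was 60.7-fold higher, and Arg1, the arginase of the urea cycle that macrophages also induce, was not called (1166, 2973 and 618 CPM against 1064, 843 and 1153 CPM, adjusted p = 0.293). The 5 lower genes belong to the urea cycle. Cps1 and Otc had 0 counts in macrophages, with 1372, 1309 and 1825 CPM and 177, 214 and 242 CPM in LPS liver (at least 24561-fold and at least 3474-fold lower), and Asl was 24.2-fold lower.

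Annexin A1, named in the study's title, signals through formyl peptide receptors. Among annexins and these receptors 11 of 11 tested members were higher in macrophages (9 under TMM) and none lower (1 lower without any 1 macrophage library or liver replicate 2), with a median log2 difference of 3.46. Anxa1 had 30.7, 37.9 and 20.5 CPM in macrophages, 8.66, 4.40 and 3.58 CPM in LPS liver and 3.81, 2.28 and 4.58 CPM in untreated liver (log2 difference 2.42, SE 0.39, edgeR adjusted p = 6.07e-04). The macrophages with the Gm26917 hairpin, given as values, had 106, 127 and 150.3 CPM. Fpr1 had 866, 1084 and 827 CPM against 10.8, 22.6 and 15.4 CPM (56.9-fold, adjusted p = 5.08e-06) and Fpr2, the receptor for annexin A1, 534, 386 and 536 CPM against 16.5, 25.4 and 19.6 CPM (23.6-fold, adjusted p = 4.23e-06). Anxa11 and Anxa3 were 14.98-fold and 14.3-fold higher. Gm26917 itself is absent from the shared IDs and was not analysed here.

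Acute phase proteins, which hepatocytes release during inflammation, were lower in macrophages for 25 of 28 members under both scalings (24 of them at least 8-fold; background 26.5% and 14.8%). The serum amyloid A family divided within itself. Saa1 had 9357, 9000.0 and 7172 CPM in LPS liver, 46.5, 31.2 and 197 CPM in untreated liver and 2.83, 70.8 and 2.39 CPM in macrophages (336-fold lower, adjusted p = 0.00148). Saa2 had 12999, 10961 and 8632 CPM in LPS liver and 0.321, 1.63 and 0.117 CPM in macrophages (15582-fold lower, adjusted p = 1.21e-05). Saa3, the form known from macrophages and fat cells, had 18325, 48535 and 13435 CPM in macrophages and 3264, 2486 and 1982 CPM in LPS liver (10.4-fold higher, adjusted p = 0.00108), with 3.29, 6.73 and 1.24 CPM in untreated liver. For all 3 genes macrophage replicate 2 was the highest; Saa1 and Saa2 are near-identical and may share reads. Il1rn, the interleukin 1 receptor antagonist, was the other member higher under both scalings (1679, 6873 and 2393 CPM against 571, 437 and 515 CPM, 7.19-fold; 727, 242 and 451 CPM with the Gm26917 hairpin). The metallothionein Mt2 was 1.85-fold higher on library totals and not called under TMM, where its log2 difference was -0.0916, nor without any 1 library other than macrophage replicate 2. Serpina3n and Itih3 (above) had 0 counts in macrophages, and Fgg, the fibrinogen gamma chain, 1 count against 7533, 10622 and 11662 CPM in LPS liver.

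Complement and coagulation are plasma cascades fed mainly by liver, with receptors on other cells. Of complement genes 5 of 24 tested members were higher in macrophages and 16 lower (4 higher and 17 lower under TMM). The receptors for the anaphylatoxins were higher, C3ar1 with 122, 732 and 142 CPM against 2.04, 4.07 and 3.58 CPM (102-fold) and C5ar1 with 71.2, 219 and 83.4 CPM against 7.17, 13.4 and 14.4 CPM (10.7-fold), as were properdin, Cfp (15.1-fold), and C1qc (above). Factor B, Cfb, was 35.9-fold higher (224, 677 and 213 CPM against 10.2, 10.1 and 10.7 CPM). Cfb overlaps Gm20547 in the annotation, and the reads of overlapping genes may have been assigned differently in the liver and macrophage tables. The mannose-binding lectins Mbl1 and Mbl2 and the terminal components C8b and C9 had 0 counts in macrophages and 211, 268, 81.2 and 75.2 CPM on average in LPS liver. C4b had 768, 1359 and 659.9 CPM in macrophages and 1695, 1572 and 1434 CPM in LPS liver and was not called (adjusted p = 0.0559; lower under TMM and without macrophage replicate 2).

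Of coagulation genes 6 of 22 tested members were higher in macrophages and 11 lower (6 higher and 14 lower under TMM). The higher members included F3, Plaur and Procr, which sit at the cell surface. F3, tissue factor, had 380.1, 219 and 519 CPM in macrophages and 5.74, 8.66 and 12.7 CPM in LPS liver (41.3-fold, adjusted p = 2.13e-05), Plaur, the urokinase receptor, 1482, 591 and 1718 CPM against 25.9, 18.0 and 21.1 CPM (58.3-fold), and Procr, the protein C receptor, 2300.4, 1091 and 2685 CPM against 18.0, 30.6 and 25.1 CPM (82.4-fold). The zymogens prothrombin (F2) and plasminogen (Plg) had 0 counts in macrophages and 1479, 1608 and 1599 CPM and 1515, 1918 and 2052 CPM in LPS liver. The factors F10 and F5 were present on both sides. F10 had 1009.9, 68.6 and 893 CPM against 416, 375 and 401 CPM and was not called (adjusted p = 0.406), and was higher in macrophages without replicate 2 (log2 difference 1.26, adjusted p = 1.65e-04). F5 had 165, 29.4 and 167 CPM against 179, 251 and 271 CPM (adjusted p = 0.156; lower under TMM).

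Many metabolic steps are run by one gene in hepatocytes and by another in most other cells, and 14 such families were compared. Of 15 hepatic forms 14 were lower in macrophages under both scalings and Arg1 was not called. Of 17 tested other forms 16 were higher on library totals (12 under TMM) and Pfkfb3 was not called; Ido1 was not tested. Genes of glucose use showed this. Among hexokinases Hk1 had 155, 179 and 159.5 CPM in macrophages against 5.85, 3.92 and 3.58 CPM (37.0-fold), Hk2 208, 218 and 208 CPM against 27.8, 18.3 and 15.9 CPM (10.2-fold) and Hk3 169.7, 489 and 178 CPM against 12.5, 14.9 and 11.4 CPM (21.5-fold). For pyruvate kinase, Pklr had 0 counts in macrophages and 2.92, 12.3 and 14.4 CPM in LPS liver, and Pkm had 2033, 4454 and 1551 CPM in macrophages and 27.5, 18.8 and 16.4 CPM in LPS liver (128-fold, adjusted p = 1.54e-05). Among glucose transporters Slc2a2 had 0 counts against 66.1, 70.0 and 88.1 CPM, and Slc2a1 was higher (369, 343 and 404 CPM against 16.3, 6.60 and 6.68 CPM, 37.8-fold).

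Hepatic and other forms also differed in opposite directions, outside glycolysis, for glycogen synthase (Gys2, at least 1528-fold lower; Gys1, 45.6-fold higher) and sterol acyltransferase (Soat2, 12.99-fold lower; Soat1, 41.1-fold higher). For methionine adenosyltransferase Mat1a had 0 counts, and Mat2a was 2.96-fold higher on library totals and not called under TMM (adjusted p = 0.0578). The lipoprotein lipases divided into Lipc (181-fold lower) and Lpl (263, 59.0 and 167 CPM against 73.8, 24.8 and 21.6 CPM, 4.06-fold higher; not called under TMM, adjusted p = 0.156, or without liver replicate 2 or 3 or macrophage replicate 1). Tdo2, the hepatic tryptophan dioxygenase, was 6773-fold lower, while Ido1 was at or below 1.03 CPM in every macrophage library. Fabp1, the hepatic fatty acid binding protein, had 0 counts, and its relatives Fabp4 (1.61-fold) and Fabp5 (2.06-fold) were higher on library totals and not called under TMM, where the log2 difference of Fabp4 was -0.29; Fabp4 was also not called without liver replicate 2 or 3 or macrophage replicate 3. In the phosphofructokinase-2 family Pfkfb1 was 20.9-fold lower and Pfkfb4 27.6-fold higher. Pfkfb3, the inflammation-inducible form, had 271, 897 and 228 CPM in macrophages, 208, 265 and 239 CPM in LPS liver and 3.29, 1.78 and 8.51 CPM in untreated liver (adjusted p = 0.11 between the LPS groups; higher without macrophage replicate 3).

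**Figure D5:**
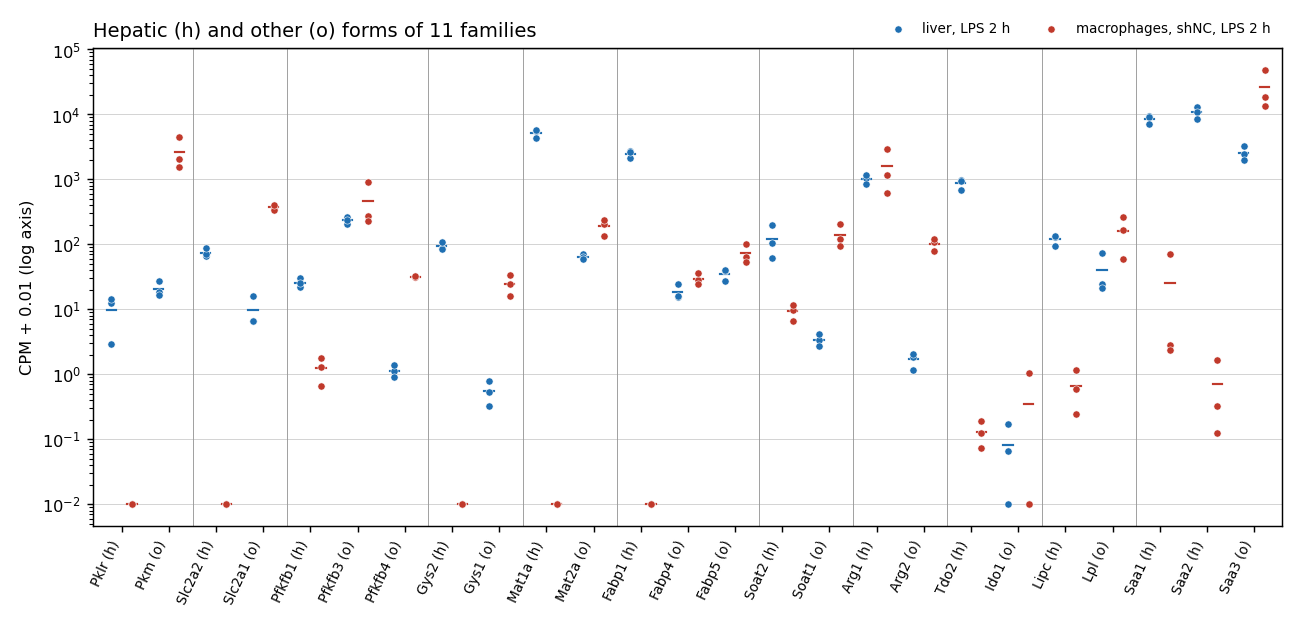
CPM + 0.01 (log axis) of the hepatic (h) and other (o) forms of 11 of the 14 gene families in LPS liver and LPS macrophages, 3 libraries each as points with their mean as a bar; vertical lines separate families. Within each family other than the arginases the hepatic form lies lower in macrophages, and most other forms lie higher on this scale; Mat2a, Fabp4, Fabp5 and Lpl did not pass the test under TMM.

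Lists of hepatocyte functions were lower in macrophages for nearly all members. Cytochrome P450 genes, which oxidise drugs, sterols and fatty acids, were lower in macrophages for 19 of 19 members under both scalings, and 15 of them had 0 counts there. Cyp2e1 had 3104, 5982 and 4889 CPM in LPS liver and 0, 0.0604 and 0.117 CPM in macrophages. Apolipoproteins were lower for 13 of 13 tested members under both scalings. Apoe, which macrophages are known to make, had 7118, 8119 and 6965 CPM in macrophages and 22805, 26509.8 and 25558 CPM in LPS liver, a 3.37-fold difference (adjusted p = 0.00177; named after its values were seen), while Apoc3 had 0 counts in macrophages. Fatty acid oxidation and ketogenesis genes were lower for 14 of 14 under both scalings; Ehhadh, of peroxisomal oxidation, was 1197-fold lower. Gluconeogenesis and urea cycle genes were lower for 11 of 12 under both scalings, all but Arg1. Pck1, the key enzyme of glucose synthesis, had 331, 317 and 382 CPM in LPS liver, 7649, 5531 and 4709 CPM in untreated liver and 3 counts in macrophages. The factors that maintain the hepatocyte were lower for 13 of 13 tested members under both scalings, 7 of 14 with 0 counts: Hnf4a had 208, 362 and 364 CPM and Foxa2 35.0, 33.1 and 35.6 CPM in LPS liver and 0 counts in macrophages.

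Lists of macrophage functions held mostly higher members on library totals, with exceptions. Over all genes 53.6% were higher and 26.5% lower (34.7% and 39.3% under TMM). Of macrophage transcription factors 12 of 15 tested members were higher in macrophages and 1 lower (10 higher and 2 lower under TMM); the lower one was the lipid-sensing Pparg, named after its values were seen. Spi1, which encodes PU.1, had 378, 405 and 335 CPM against 5.90, 14.3 and 9.57 CPM (37.5-fold, adjusted p = 8.17e-06), Runx1 135, 142 and 117 CPM against 3.64, 2.87 and 3.10 CPM (41.0-fold) and Mitf 63.2, 70.2 and 50.01 CPM against 2.54, 3.73 and 2.62 CPM (20.5-fold). Of genes for phagocytosis and the lysosome 15 of 20 tested members were higher in macrophages and 1 lower (15 higher and 4 lower under TMM; 3 lower without macrophage replicate 2). Gpnmb, a lysosomal glycoprotein, had 347, 332 and 228 CPM against 0.441, 0.239 and 0.321 CPM (896-fold), the scavenger receptor Msr1 was 61.9-fold higher and the protease Ctss 35.4-fold higher. Atp6v0d2, a macrophage proton pump subunit, was lower (2.57, 0.423 and 2.10 CPM against 17.2, 22.9 and 13.1 CPM, 10.4-fold; macrophages with the Gm26917 hairpin had 83.7, 126 and 152 CPM). Of antigen presentation genes 10 of 15 tested members were higher in macrophages and 1 lower (6 higher and 3 lower under TMM; 2 lower without macrophage replicate 2, none lower without macrophage replicate 3). The median log2 difference of the antigen presentation list was 1.11 (0.12 under TMM), near that of all genes (0.88, and -0.11 under TMM). The co-stimulatory Cd80 had 201, 79.4 and 334 CPM against 1.10, 1.72 and 1.603 CPM (138-fold, adjusted p = 2.27e-05) and Cd86 was 9.23-fold higher. Class II genes were higher (H2-Ab1 8.30-fold, Cd74 5.34-fold), the immunoproteasome subunit Psmb9 was 2.64-fold lower (not called without macrophage replicate 3), and class I B2m was not called (1947, 4892 and 2435 CPM against 1667, 1961 and 1785 CPM; higher without macrophage replicate 1).

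Promoter sequences of the genes with 8-fold differences were described by the share that holds each of 7 motifs on either strand. Shares are given in turn over the 32851 RefSeq promoters of 300 bases in GRCm38.p6, the 13029 promoters of the genes tested, the 1999 of genes at least 8-fold higher in macrophages and the 1840 of genes at least 8-fold lower. These shares are descriptions, untested, and a match is not a binding site. The PU.1 sequence GAGGAAGT was in 3.20%, 3.23%, 4.90% and 2.39%, the largest share being that of the higher set. The sequences of both hepatocyte factors searched had their largest share in the lower set. HNF1, GTTAAT and ATT with any base between them, was in 0.399%, 0.315%, 0.150% and 1.69%, and HNF4, CAAAGTCCA, in 0.475%, 0.568%, 0.650% and 1.58%. For motifs of factors that LPS activates, the higher set did not have the largest share. The NF-kB sequence was in only 9 promoters of the higher set and 10 of the lower set, so the order of its shares rests on few promoters. NF-kB, GGGA and TTTCC around any base, was in 0.411%, 0.453%, 0.450% and 0.543%, AP-1, TGANTCA, in 7.81%, 5.47%, 7.10% and 8.31%, and the interferon-stimulated response element, GAAA before and after any 2 bases, in 3.44%, 3.37%, 2.95% and 3.26%. C/EBP, TTGCGNAA, was in 0.797%, 1.28%, 1.05% and 1.25%, with the largest share over all genes tested. No window is counted more than once per motif, and matches of different motifs may overlap.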

How the data were processed

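Polyadenylated RNA of 12 mouse samples was sequenced, and 1 table of counts per gene was deposited per sample. The tables hold raw counts per Ensembl gene ID, per the file headers. STAR and featureCounts 1.6.3 with mm10 are named in the submitters' processing notes, and neither the annotation release nor the use of strand nor the treatment of reads with several matches is given in the sources used here. The column headers of the macrophage tables carry the word combined, without saying of what.

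Counts of the 49022 shared IDs were scaled to their library total as CPM, with symbols from GENCODE M21. Macrophages with the control hairpin were compared with LPS liver (3 against 3) by edgeR 4.0.16 (R 4.3.3, limma 3.58.1) after filterByExpr, with glmQLFit and glmQLFTest and Benjamini-Hochberg adjustment over the 13798 genes tested. Fold changes come from that fit, and p-values printed without a tool name are its adjusted p. Where a gene had 0 counts in a group, the fold is a bound from a floor of 3 counts over that group; with 1 count, a ratio is given with its 95% interval, which covers counting error only. DESeq2 1.42.0, other scalings, other filters and single libraries left out were alternatives. Promoters are from RefSeq (GRCm38.p6).

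The members of 36 gene lists and 14 isozyme families, like the comparison itself, were chosen with earlier results of these data known. Genes were named by rule: the 10 largest changes in each direction with a mean of at least 100 CPM, up to 4 called members a list and direction with at least 10 CPM, up to 3 uncalled members with the highest mean, all isozymes, and 14 genes of LPS response and of the study's title. Gm26917 is in the liver tables, is not among the shared IDs and was not analysed here. Some members of the lists are counted in the totals and are not reported here by name. The groups share no batch labels, and tissue and library processing cannot be told apart.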

Additional observations from a re-analysis of the deposited data

How the results depend on the processing

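Scaling moved the counts of genes called, and so did the DESeq2 Wald test. That test differed from the main fit in scaling, in the test and in the genes entered, which were all those with any count. Genes higher in macrophages numbered 4788 under TMM and 4614 with DESeq2 size factors in edgeR, and genes lower 5571 with those size factors and 6751 in the DESeq2 Wald test. At least 8-fold higher genes numbered 1231 and 1177 under the same scalings, and at least 8-fold lower genes 3761 in the DESeq2 Wald test. The median log2 difference of all genes was -0.11 under TMM, -0.17 with DESeq2 size factors, -0.54 in the Wald test, 0.77 without mitochondrially encoded transcripts, 0.44 without a filter on low counts and 1.17 with the Gm26917 hairpin macrophages. Leaving out each library in turn gave 7043 to 7619 genes higher, 3477 to 4134 lower, 2109 to 2398 at least 8-fold higher and 2065 to 2362 at least 8-fold lower, with medians of 0.78 to 0.96. Named genes whose log2 difference changed sign under TMM included C1qc (-0.0198), Fabp4 (-0.29) and Mt2 (-0.0916). With DESeq2 size factors in edgeR they included Atf3 (-0.58), C1qc (-0.0792), Fabp4 (-0.35), Fabp5 (-0.0113) and Mt2 (-0.15). In the DESeq2 Wald test they included C1qc (-0.0228), Fabp4 (-0.29) and Mt2 (-0.0893). With the Gm26917 hairpin macrophages in place of the controls they included Atf3 (-0.56), Atp6v0d2 (2.76), Il10 (-1.64), Il1rn (-0.0997) and Irf7 (-3.61). Also changed there were Mt2 (-0.63), Nos2 (-3.65), Oas1g (-1.25), Oas3 (-0.11), Oasl2 (-1.25), Pfkfb3 (-1.003) and Rarb (0.0890). These lists do not hold every sign change. TMM moved the median of all genes down by 0.99, and Arg1, with 0.64 on library totals, is not in them. The cause of the sign changes was not tested.

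The replicate number used as a block gave 7226 genes higher, 3632 lower, 2111 and 2069 at least 8-fold higher and lower, and a median of 0.86. The deviations of same-numbered libraries correlated at 0.028, 0.022 and 0.0182 across genes, and those of differently numbered libraries at -0.0423 to 0.00764. With 3 libraries per group these values cannot tell whether the numbers pair the libraries. Depth limits statements on genes with 0 counts to the bounds given.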

Other observations

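Of 16 cell cycle genes 10 were tested, and 6 of these were higher in the macrophage libraries (5 under TMM). Over all genes tested 53.6% were higher (34.7% under TMM), so the count stands near that of all genes on library totals. Mki67, the proliferation antigen, had 285, 141 and 161 CPM against 7.62, 7.32 and 5.18 CPM in LPS liver (29.1-fold, edgeR adjusted p = 9.85e-06), Pcna, the replication clamp, 108, 111 and 118 CPM against 17.7, 18.3 and 19.6 CPM (6.06-fold) and the helicase subunit Mcm5 10.7, 20.5 and 6.89 CPM against 0.331, 0.957 and 0.802 CPM (17.9-fold). Without macrophage replicate 2, 2 members were lower. Of the 4 members not called, the mitotic kinase Aurka had 0.899, 1.75 and 0.992 CPM against 1.55, 2.49 and 1.98 CPM and the spindle gene Tpx2 0.835, 4.23 and 0.584 CPM against 1.38, 1.34 and 1.12 CPM; under TMM, and without macrophage replicate 2, Aurka was lower.

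Messengers encoded by the mitochondrial genome were lower in macrophages for 13 of 13 members under both scalings, with a median log2 difference of -4.27. mt-Nd4 had 491, 239 and 408 CPM in macrophages and 12489, 7959 and 7852 CPM in LPS liver, highest in liver replicate 1, and 4877 CPM on average in untreated liver. A set of 4 cytosolic ribosomal protein genes stood apart from the other 18 of their list. Rps6 had 6.87, 4.35 and 6.65 CPM in macrophages and 339, 343 and 360.4 CPM in LPS liver, Rpl5 9.76, 6.35 and 10.4 CPM and 347, 311 and 300.3 CPM, Rpl13 16.2, 7.74 and 10.7 CPM and 489, 382 and 371 CPM, and Rpl10a 28.6, 11.2 and 22.2 CPM and 352, 243 and 209 CPM. Macrophages with the Gm26917 hairpin had 8.56, 10.6, 15.2 and 34.7 CPM of them on average. In the whole list 1 of 22 were higher in macrophages and 11 lower (0 higher and 21 lower under TMM; none higher without macrophage replicate 1 or 3 or liver replicate 2 or 3, 2 higher without macrophage replicate 2). The other 18 had means of 104 to 599 CPM in the control macrophages. The liver and macrophage tables came from different annotations, and whether the counting of these genes differed was not tested.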
